A study of Mus musculus with 9 samples.

Results

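The cDC1 identity genes Xcr1, Clec9a, Wdfy4, Cadm1, Btla, Naaa, Ppt1 and Snx22 were measured in sorted spleen dendritic cells (DCs) of normal and leukemic mice. They were taken from the table of gene expression by their exact gene symbols and made up 8 of the 54532 genes listed. RNA-seq was performed on 3 samples each of 3 populations, 9 samples in all. N-mDCs were mature conventional DCs (cDCs) of healthy mice, T-mDCs were mature cDCs of mice with T cell acute lymphoblastic leukemia (T-ALL), and T-DCs were CD11c+ cells with low surface MHCII from mice with T-ALL. The mice were C57BL/6J females used at 6 to 8 weeks of age, and leukemic recipients could also be C57B6.SJL. T-ALL came from bone marrow cells carrying the intracellular domain of Notch1 (ICN1) on a retrovirus that also expresses GFP, and the GFP+ leukemia cells were passed into recipients that were not irradiated. Cells were sorted on day 15, after red blood cells were lysed and, for T-DCs, after CD11c+ cells were enriched with beads. Low MHCII was therefore a condition of the T-DC sort and not a result. The labels do not say whether the samples of a group came from separate mice or from pools, and p-values measure only the spread between these samples.

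cDC1 are the cDCs specialised in taking up dead cells and presenting their antigens on MHC class I to CD8+ T cells, a process called cross-presentation. Their development depends on the transcription factors Irf8 and Batf3, and they are told from cDC2, the other branch of cDCs, by surface receptors such as Xcr1 and Clec9a. Bulk RNA holds all the cells of a sort, so fewer cDC1 and less RNA of these genes per cell cannot be told apart here.

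Members of the IRF, ETS and AP-1 families take part in gene control in cDC1, so the promoters of the genes were searched for short motifs of these families. RefSeq gave a window of 250 bases before to 50 bases after the start site (GRCm38.p6) for 7 of the 8 genes, the exception being Cadm1. The letters GAAANNGAA, a core of IRF sites, were found on either strand in the windows of 3 genes (Clec9a, Btla and Ppt1), and 8.56% of all 32851 windows held them. GAGGAAGT, a PU.1 type site, was found in the window of Btla and in 3.20% of all windows. GGAANNGAA, an ETS-IRF type site held by 8.24% of all windows, and TGANTCA, an AP-1 site held by 7.81%, were found in none of the 7 genes. The windows of the 3 genes with a match and, to set beside them, those of Xcr1 and Snx22 without one are printed from 5′ to 3′ on the strand of the gene, with the matched letters in capitals. Xcr1 lies on the minus strand at chr9:123861980-123862279, Clec9a on the plus strand at chr6:129408612-129408911, Btla on the plus strand at chr16:45224087-45224386, Ppt1 on the plus strand at chr4:122835977-122836276, and the first of the start sites of Snx22 on the minus strand at chr9:66069710-66070009.
Clec9a: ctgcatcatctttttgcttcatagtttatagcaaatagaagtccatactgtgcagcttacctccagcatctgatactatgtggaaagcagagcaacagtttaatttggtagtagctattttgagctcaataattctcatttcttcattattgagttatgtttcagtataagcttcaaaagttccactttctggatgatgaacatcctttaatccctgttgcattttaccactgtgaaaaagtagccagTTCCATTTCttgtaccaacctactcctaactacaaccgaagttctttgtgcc
Btla: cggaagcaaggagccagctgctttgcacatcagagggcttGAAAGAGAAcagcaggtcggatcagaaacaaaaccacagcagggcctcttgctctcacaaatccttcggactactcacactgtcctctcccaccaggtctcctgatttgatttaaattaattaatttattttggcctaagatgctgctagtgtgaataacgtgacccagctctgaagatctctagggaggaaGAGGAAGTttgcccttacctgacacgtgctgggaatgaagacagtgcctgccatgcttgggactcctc
Ppt1: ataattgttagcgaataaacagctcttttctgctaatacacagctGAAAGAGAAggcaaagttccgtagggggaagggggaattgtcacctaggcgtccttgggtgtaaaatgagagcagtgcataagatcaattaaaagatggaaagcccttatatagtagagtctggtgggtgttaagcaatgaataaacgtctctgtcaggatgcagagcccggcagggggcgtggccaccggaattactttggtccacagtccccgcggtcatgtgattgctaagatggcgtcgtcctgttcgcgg
Xcr1: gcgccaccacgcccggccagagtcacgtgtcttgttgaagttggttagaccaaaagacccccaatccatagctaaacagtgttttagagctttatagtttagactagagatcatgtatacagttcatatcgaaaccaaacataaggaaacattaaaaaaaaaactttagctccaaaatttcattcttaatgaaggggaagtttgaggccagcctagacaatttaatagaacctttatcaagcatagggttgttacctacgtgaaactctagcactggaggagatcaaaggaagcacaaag
Snx22: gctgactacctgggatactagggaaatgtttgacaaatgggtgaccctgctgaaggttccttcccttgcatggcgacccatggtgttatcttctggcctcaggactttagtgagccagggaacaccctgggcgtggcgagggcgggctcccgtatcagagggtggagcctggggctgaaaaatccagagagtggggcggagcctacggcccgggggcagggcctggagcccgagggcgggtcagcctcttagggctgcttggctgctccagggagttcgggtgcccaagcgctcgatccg
Counted from the start site as position 0, the match in Clec9a spans positions -2 to 6 and reads GAAATGGAA on the opposite strand. GAAAGAGAA stands at positions -210 to -202 in Btla and at positions -205 to -197 in Ppt1, both on the strand of the gene. The PU.1 type match in Btla lies at positions -18 to -11. A match of letters is not a measured binding site, and no binding was measured in these samples.

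Levels are given as FPKM, the reads on a gene scaled by its length and by the size of the library. Reads on genes ranged from 15360815 to 18440913 per sample, and each of the 8 genes had at least 69 reads in every sample. Of all pairs of samples within a group, T-mDC samples 2 and 3 resembled each other most. Their counts gave a chi-square per gene of 1.85, where the other 8 pairs gave 7.77 or more. Red cell RNA set T-DC samples 2 and 3 apart, with 5.17% and 4.08% of reads on 10 erythroid genes, against 0.0588% in T-DC sample 1 and at most 0.432% in any N-mDC or T-mDC sample.

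Xcr1 is the receptor for the chemokine Xcl1, which NK cells and CD8+ T cells make. Samples 1 to 3 of N-mDCs had Xcr1 at 18.9, 13.0 and 11.4 FPKM, those of T-DCs at 6.81, 1.96 and 1.02, and those of T-mDCs at 25.4, 63.8 and 63.2. Every T-DC sample was below every N-mDC sample, and every T-mDC sample was above them. Clec9a, also called DNGR-1, binds actin filaments exposed on dead cells. In the same order of samples, N-mDCs had Clec9a at 38.4, 32.3 and 30.2 FPKM, T-DCs at 11.4, 4.51 and 2.80, and T-mDCs at 40.3, 66.8 and 66.8. The 3 groups did not overlap for Clec9a either, although T-mDC sample 1 stood close to N-mDC sample 1.

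Wdfy4 is a large BEACH domain protein needed by cDC1 for cross-presentation of antigens from cells. N-mDCs had Wdfy4 at 151, 91.4 and 95.2 FPKM, T-DCs at 43.2, 21.7 and 11.0, and T-mDCs at 119, 175 and 177. All T-DC samples were lowest, and the ranges of N-mDCs and T-mDCs overlapped. Btla is an inhibitory receptor that binds Hvem. Its level was 38.7, 24.5 and 29.3 FPKM for N-mDCs, 17.2, 9.06 and 4.73 for T-DCs, and 56.7, 74.8 and 72.1 for T-mDCs, with no overlap between any pair of groups.

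Cadm1 is a cell adhesion molecule of the immunoglobulin superfamily. N-mDCs had Cadm1 at 15.8, 11.3 and 15.2 FPKM, T-DCs at 12.3, 5.12 and 1.84, and T-mDCs at 19.1, 23.2 and 22.7. T-DC sample 1 lay within the range of N-mDCs, and both other T-DC samples lay below it. Naaa and Ppt1 are lysosomal enzymes, which split fatty acid amides and remove palmitate from proteins, respectively. Naaa was at 97.1, 84.6 and 69.7 FPKM for N-mDCs, 71.7, 27.3 and 15.3 for T-DCs, and 167, 261 and 271 for T-mDCs. Ppt1, the most abundant of the 8 genes in each group by mean FPKM, measured 179.9, 136 and 115 FPKM for N-mDCs, 149, 59.4 and 36.4 for T-DCs, and 236, 342 and 341 for T-mDCs. For both enzymes, T-DC sample 1 fell inside the range of N-mDCs and T-mDCs stood above all other samples.

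Snx22, a sorting nexin that binds phosphoinositides, followed another pattern. N-mDCs had Snx22 at 16.6, 18.3 and 9.16 FPKM, T-DCs at 7.43, 41.2 and 32.5, and T-mDCs at 26.7, 47.3 and 50.3. T-DC sample 1 was the lowest of all 9 samples, while T-DC samples 2 and 3 were above every N-mDC sample and within the range of T-mDCs. The other 7 genes were 3.63-fold (Btla) to 6.69-fold (Cadm1) higher in T-DC sample 1 than in T-DC sample 3, and Snx22 was 0.229 times as high.

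**Figure D1:**
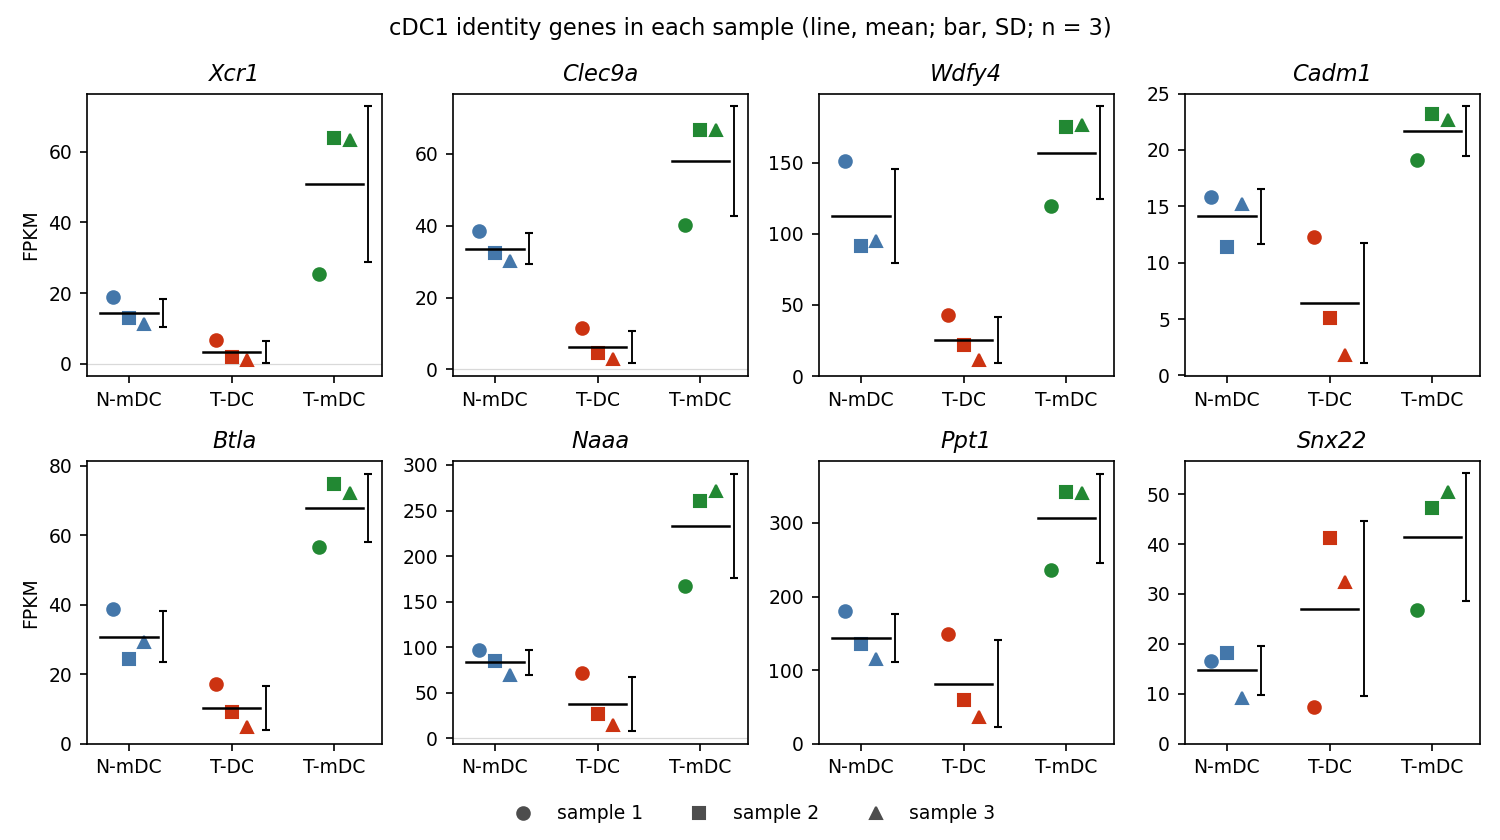
FPKM of the 8 cDC1 identity genes (vertical axes, linear, each gene with its own scale) for N-mDCs, T-DCs and, last, T-mDCs, with a circle, square and triangle for samples 1, 2 and 3, a line for the mean and a bar for the SD (n = 3). T-DC samples were the lowest for Xcr1, Clec9a, Wdfy4 and Btla, T-DC sample 1 lay among N-mDCs for Cadm1, Naaa and Ppt1, and only Snx22 was lowest in T-DC sample 1 and higher in T-DC samples 2 and 3.

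The comparison of T-DCs with N-mDCs addressed how the DCs with low MHCII in leukemia differed from mature cDCs of healthy spleens. Of the 8 genes, 4 were lower in T-DCs and none was higher (limma, adjusted p under 0.05), while 10.3% of all 12746 tested genes were called lower and 6.10% higher. Clec9a fell from 33.6 ± 4.27 to 6.24 ± 4.56 FPKM (SD, n = 3 samples per group). On the log2(FPKM + 1) scale, its difference was -2.43 (SE 0.41, limma adjusted p = 0.00654). Wdfy4 fell from 113 ± 33.3 to 25.3 ± 16.4 FPKM (log2 difference -2.27, SE 0.44, limma adjusted p = 0.0118). Mean Xcr1 was 14.4 ± 3.96 FPKM in N-mDCs and 3.26 ± 3.11 in T-DCs, 4.42-fold lower in T-DCs (log2 difference -2.07, SE 0.53, limma adjusted p = 0.0319). Btla fell from 30.8 ± 7.24 to 10.3 ± 6.32 FPKM (log2 difference -1.62, SE 0.38, limma adjusted p = 0.0249).

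The other four genes did not pass the test against N-mDCs. Their log2 differences were -1.38 for Naaa (95% interval -2.48 to -0.28, limma adjusted p = 0.0818), -1.28 for Cadm1 (-2.35 to -0.22, adjusted p = 0.0916), -1.03 for Ppt1 (-2.07 to 0.02, adjusted p = 0.148) and 0.60 for Snx22 (-0.72 to 1.92, adjusted p = 0.494). The intervals of Naaa, Cadm1 and Ppt1 include the difference of Btla, the smallest among the genes that were called. The 4 genes called were also the 4 whose T-DC samples all lay below all N-mDC samples, which held for 16.4% of all tested genes. The median log2 difference was -1.50 over the 8 genes and 0.05 over all tested genes.

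The calls against N-mDCs depended on single libraries. Without T-DC sample 1, limma called all 8 genes, 7 lower and Snx22 higher (log2 difference 1.31, adjusted p = 0.0202), and the same fit called 19.0% of all tested genes lower and 20.5% higher. Leaving out N-mDC sample 1, N-mDC sample 3, T-DC sample 2 or T-DC sample 3 left 2 genes, Clec9a and Wdfy4. These fits called 5.97%, 5.87%, 6.05% and 6.1% of all tested genes lower, against 10.3% with all samples. Leaving out N-mDC sample 2 left 3 genes, since Xcr1 was lost (limma adjusted p = 0.0732), beside 8.58% of all tested genes lower. A further fit kept T-DC sample 1 as the only T-DC sample, which was assumed to vary like the samples of the other groups. The log2 differences were then -1.47 for Clec9a, -1.32 for Wdfy4, -0.95 for Xcr1 and -0.78 for Btla. They were -0.17 for Cadm1, -0.21 for Naaa, 0.08 for Ppt1 and -0.84 for Snx22. With the mean of the erythroid genes as a covariate, limma called 0 of the 8. An unadjusted p under 0.05 was found for 3 of them and for 23% of all tested genes. This mean, as log2(FPKM + 1), was 4.40, 10.5 and 10.5 in T-DC samples 1 to 3 and 1.98 to 5.80 in N-mDC samples. The covariate followed the groups in part, so that fit cannot fully tell group from red cell RNA. The log2 differences in that fit were smaller in size, at -1.46 for Clec9a (SE 0.32, limma adjusted p = 0.0503), -1.21 for Wdfy4, -0.80 for Xcr1, -0.70 for Btla and 0.07 for Ppt1, and the fit called 3.93% of all tested genes in either direction. When FPKM was instead rescaled to a total without the erythroid genes, 4 were called lower, beside 8.24% of all genes tested in that fit.

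The comparison of T-DCs with T-mDCs set side by side the DCs with low MHCII and the mature cDCs of the same disease. It used the same T-DC samples as the comparison with N-mDCs, so the results of both are not independent. Of the 8 genes, 7 were lower in T-DCs (limma), the exception being Snx22, and 8.79% of all tested genes were called lower. Xcr1 had the largest difference and averaged 50.8 ± 22.0 FPKM in T-mDCs, 15.6-fold above T-DCs (log2 difference -3.73, limma adjusted p = 0.00378). Clec9a averaged 57.9 ± 15.3 FPKM in T-mDCs, 9.29-fold above T-DCs (log2 difference -3.17, limma adjusted p = 0.00261).

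The rest of the genes followed, by size of the estimate, in the order Naaa, Wdfy4, Btla, Ppt1 and Cadm1 with Naaa, Wdfy4 and Btla within 1 SE of each other. Naaa averaged 38.1 ± 29.7 FPKM in T-DCs and 233 ± 57.1 in T-mDCs (log2 difference -2.83, limma adjusted p = 0.00763). Wdfy4 averaged 157 ± 32.6 FPKM in T-mDCs (log2 difference -2.76, limma adjusted p = 0.00582), and Btla averaged 67.9 ± 9.81 (log2 difference -2.75, limma adjusted p = 0.00361). Smaller differences were found for Ppt1, at 81.7 ± 59.7 FPKM in T-DCs and 306 ± 60.8 in T-mDCs (log2 difference -2.12, limma adjusted p = 0.0199), and for Cadm1, at 6.43 ± 5.36 and 21.6 ± 2.22 FPKM (log2 difference -1.88, limma adjusted p = 0.0322). Snx22 averaged 27.0 ± 17.5 FPKM in T-DCs and 41.4 ± 12.9 in T-mDCs, a log2 difference of -0.84 that did not pass the test (95% interval -2.16 to 0.48, limma adjusted p = 0.365). For the same 7 genes, every T-DC sample was below every T-mDC sample, as for 18.1% of all tested genes, and the median log2 difference was -2.76 over the 8 genes and 0.07 over all tested genes.

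Xcr1, Clec9a, Naaa, Wdfy4 and Btla had a limma adjusted p under 0.05 whichever of the 9 samples was left out. Cadm1 was lost when N-mDC sample 1 (limma adjusted p = 0.0519) or 3 (0.0557), T-DC sample 2 (0.0925) or T-mDC sample 1 (0.0531), 2 (0.117) or 3 (0.116) was left out, and with T-mDC samples 2 and 3 counted as 1 (0.117). Ppt1 was lost without T-DC sample 2 (0.0707), T-mDC sample 2 (0.0885) or T-mDC sample 3 (0.0873), and with T-mDC samples 2 and 3 counted as 1 (0.0874). With T-DC sample 1 as the one T-DC sample, and its spread taken from the other groups, the log2 differences from T-mDCs were -0.76 for Cadm1, -1.01 for Ppt1 and -2.28 for Snx22. With the mean of the erythroid genes as a covariate, limma called 0 of the 8 and 0 of all tested genes, where 6 of the 8 and 14.7% of all tested genes had an unadjusted p under 0.05. The log2 differences in that fit were -1.91 for Xcr1, -1.77 for Clec9a and -1.21 for Naaa. The mean log2(FPKM + 1) of the erythroid genes was 4.40 to 10.5 in T-DC samples and 0.941 to 2.90 in T-mDC samples. As these ranges do not overlap, the fit cannot tell group from red cell RNA, and no conclusion is drawn from its loss of calls.

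The comparison of T-mDCs with N-mDCs asked whether mature cDCs differed between leukemic and normal spleens. Mean FPKM of all 8 genes was higher in T-mDCs, from 1.40-fold for Wdfy4 to 3.53-fold for Xcr1, but limma called 0 of the 8, where 2.21% of all tested genes were called in either direction and 0.690% higher. At an unadjusted p under 0.05 there were 5 genes, and 16.7% of all tested genes reached this level in either direction. Voom on whole reads also called 0. A limma fit of these 2 groups alone called 3 (Naaa, Btla and Ppt1) beside 2.84% of all tested genes called higher. Without T-DC sample 1, which enters only the shared spread, limma called 5 (Xcr1, Naaa, Btla, Ppt1 and Snx22) beside 3.46% of all tested genes higher. Array weights, whose estimation did not converge, called 7 (all but Wdfy4) beside 14.8% of all tested genes higher. All T-mDC samples were above all N-mDC samples for 7 of the 8 genes, the exception being Wdfy4, and 19.3% of all tested genes showed this.

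The largest differences in this comparison were those of Xcr1 (log2 difference 1.67, 95% interval 0.47 to 2.87, limma adjusted p = 0.160), Naaa (1.45, adjusted p = 0.179), Snx22 (1.44, adjusted p = 0.259), Btla (1.13, adjusted p = 0.186) and Ppt1 (1.09, adjusted p = 0.280). Clec9a (0.74, limma adjusted p = 0.404), Cadm1 (0.59, adjusted p = 0.567) and Wdfy4 (0.49, adjusted p = 0.617) differed less. All 8 genes were lower in T-mDC sample 1 than in T-mDC samples 2 and 3, with Xcr1 at 25.4 FPKM against 63.8 and 63.2. The median log2 difference was 1.11 over the 8 genes and 0.03 over all tested genes. The comparison shares its T-mDC and N-mDC samples with the others.

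**Figure D2:**
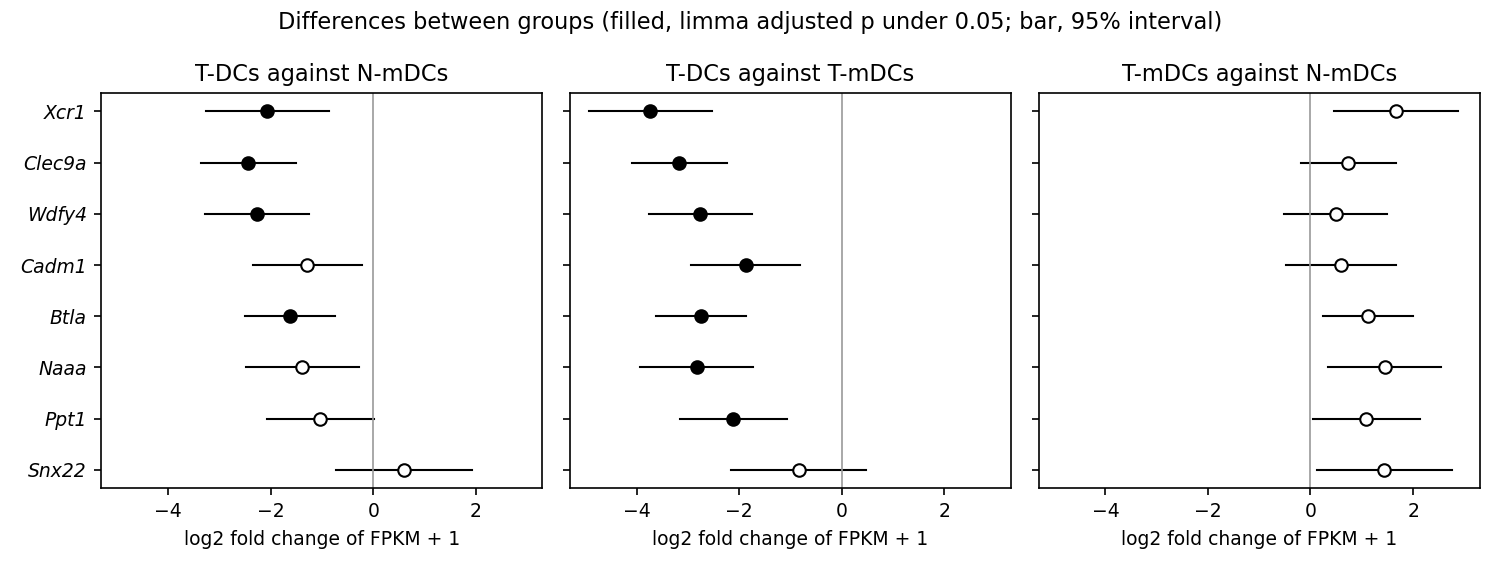
Differences of the 8 genes between groups in 3 panels (horizontal axis, log2 fold change of FPKM + 1, first group minus second), with points for estimates, bars for 95% intervals and filled points for limma adjusted p under 0.05. Filled points number 4 in T-DCs against N-mDCs, 7 in T-DCs against T-mDCs and 0 in T-mDCs against N-mDCs, and Snx22 is open in each panel.

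The levels of the genes were next set against Clec9a in the same sample, a ratio that does not change with the share of reads taken by red cell RNA. This ratio was chosen after the values were seen, and its groups are described without a test. Ppt1 was 3.82 to 4.68 times the FPKM of Clec9a in N-mDCs, 5.10 to 5.86 times in T-mDCs, and 13.0 to 13.2 times in T-DCs. The 3 T-DC samples thus gave nearly the same ratio while their Ppt1 levels ran from 36.4 to 149 FPKM. Naaa was 2.31 to 2.62 times Clec9a in N-mDCs, 3.90 to 4.16 times in T-mDCs and 5.46 to 6.29 times in T-DCs, with no overlap among the groups. Btla was 0.757 to 1.01 times Clec9a in N-mDCs, 1.08 to 1.41 times in T-mDCs and 1.51 to 2.01 times in T-DCs, in the same order of groups.

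The ratio of Cadm1 to Clec9a was 0.658 to 1.14 in T-DCs, above both N-mDCs (0.351 to 0.502) and T-mDCs (0.339 to 0.474). Wdfy4 to Clec9a was 3.79 to 4.82 in T-DCs, 2.83 to 3.93 in N-mDCs and 2.62 to 2.97 in T-mDCs, and the ranges of T-DCs and N-mDCs overlapped. Xcr1 differed from these genes, with overlapping ratios in T-DCs (0.364 to 0.597) and N-mDCs (0.376 to 0.492) and higher ratios in T-mDCs (0.630 to 0.956). Snx22 gave ratios of 0.652, 9.15 and 11.6 in T-DC samples 1, 2 and 3, and at most 0.754 in any other sample. Relative to Clec9a, the lysosomal enzymes, Btla and Cadm1 were thus higher in each T-DC sample than in any sample of the other groups. T-DC sample 1 had little red cell RNA but the highest mean log2(FPKM + 1) of a list of macrophage genes, at 8.36. The part of other cells in these ratios was not tested.

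**Figure D3:**
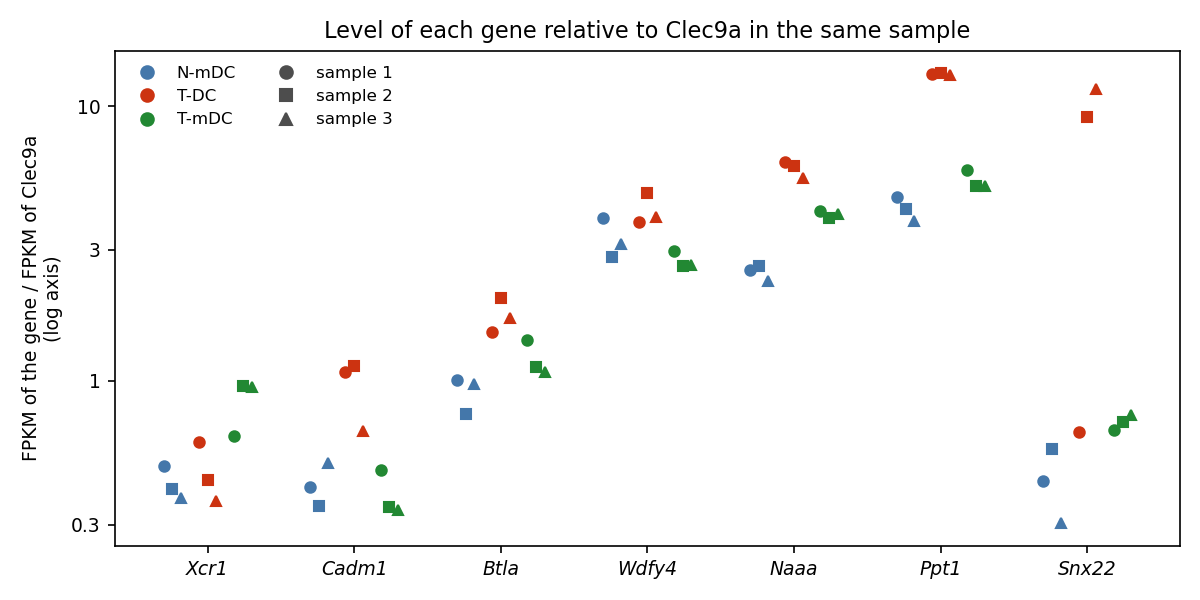
FPKM of each gene divided by the FPKM of Clec9a in the same sample (vertical axis, log scale) for 7 genes, in blue for N-mDCs, red for T-DCs and green for T-mDCs, with a circle, square and triangle for samples 1, 2 and 3. The T-DC points of Ppt1 lie together at 13.0 to 13.2, above all others of that gene, and Snx22 has 2 T-DC points far above the rest.

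Over the 9 samples, the 21 pairs among the 7 genes other than Snx22 had Pearson r of 0.929 to 0.994 on the log2(FPKM + 1) scale. Snx22 had r of -0.07 to 0.22 with each of them. These values describe samples that share groups, libraries and red cell content. The gene most like Xcr1 was Tlr11 (r = 0.997), a receptor for profilin of protozoa, and the gene most like Clec9a was Rab7b (r = 0.997), a small GTPase of late endosomes. Wdfy4 was most like Nfkb2 (r = 0.997) and Rala (0.996), Cadm1 like Actr3 (0.995) and Icam1 (0.990), Btla like Zfp366 (0.992) and Enox2 (0.992), Naaa like Gcsam (0.990) and Olfm1 (0.990), and Ppt1 like Mpzl3 (0.991) and Stx7 (0.988). The next most like Xcr1 was Fndc7 (0.994), and the next most like Clec9a was Mycl (0.996), a Myc family factor of cDCs. Snx22 was instead most like the cell cycle kinases Pkmyt1 (0.961) and Melk (0.950).

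The list of 14 other genes associated with cDC1 gave 7 lower and 1 higher in T-DCs against N-mDCs, 12 lower and 1 higher against T-mDCs, and none in T-mDCs against N-mDCs (limma). Cd8a, carried by cDC1 of the spleen, fell from 40.8 ± 8.50 FPKM in N-mDCs to 5.61 ± 3.62 in T-DCs (log2 difference -2.79, limma adjusted p = 0.00517). Tlr3, a sensor of double-stranded RNA, measured 5.77 ± 0.669 FPKM in N-mDCs, 1.91 ± 1.42 in T-DCs and 18.7 ± 5.67 in T-mDCs, and was called lower in T-DCs against both (adjusted p = 0.0380 and 0.00256). The gene called higher in both was Cd36, a scavenger receptor that macrophages and erythroid cells also express, at 27.4 ± 4.92 FPKM in N-mDCs, 87.8 ± 24.3 in T-DCs and 38.2 ± 10.8 in T-mDCs. Cd24a, which red cells carry too, was at 30.3 FPKM in T-DC sample 1 and at 1192 and 1097 in T-DC samples 2 and 3, against 48.3 to 81.6 in all other samples, and was not called (adjusted p = 0.196 against N-mDCs). Among T-DCs, samples 2 and 3 were thus set apart from sample 1 by high Cd24a, Snx22 and erythroid genes alike. A list of neutrophil genes also set them apart, with mean log2(FPKM + 1) of 8.34 and 6.90 against 0.82. T-mDC samples had Snx22 at 26.7 to 50.3 FPKM. With the erythroid covariate, which followed the groups in part, the log2 difference of Snx22 from N-mDCs was -0.53 instead of 0.60. The part of red cells or neutrophils in the level of Snx22 was not otherwise tested.

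Of the 5 cDC1 transcription factors, 2 were called lower in T-DCs against N-mDCs and 2 against T-mDCs. N-mDCs had Batf3 at 68.8, 82.0 and 47.7 FPKM, T-DCs at 23.1, 13.4 and 4.37, and T-mDCs at 51.4, 81.7 and 76.8. It was called lower in T-DCs against N-mDCs (log2 difference -2.41, limma adjusted p = 0.0147) and against T-mDCs (-2.50, adjusted p = 0.0142), with a difference of 0.09 between T-mDCs and N-mDCs. Irf8 was called against T-mDCs (log2 difference -1.87, limma adjusted p = 0.0194) and not against N-mDCs (-1.34, adjusted p = 0.0534). Nfil3, at 71.0 ± 7.26 FPKM in N-mDCs and 36.7 ± 13.5 in T-DCs, was called against N-mDCs at the edge of the threshold (limma adjusted p = 0.04997), and Id2 and Bcl6 were called in neither comparison.

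Markers of the other cell types were read beside the cDC1 identity genes. Of the 4 genes shared by all cDCs, Flt3, Dpp4 and Zbtb46 were lower in T-DCs in both comparisons, and Itgax, the most abundant of them, was called in neither (limma adjusted p = 0.0926 and 0.149). Clec9a stood at 0.487 to 0.771 times the FPKM of Flt3, the receptor of the DC growth factor Flt3l, in all 9 samples. Relative to Itgax, which encodes CD11c, Clec9a was at 0.0499 to 0.0753 in T-DCs, 0.167 to 0.204 in N-mDCs and 0.254 to 0.403 in T-mDCs. Clec9a relative to Zbtb46, a transcription factor of cDCs, was at 6.21, 1.59 and 0.818 in T-DC samples 1, 2 and 3, and at 2.40 to 3.77 in all other samples. The cDC2 list gave 8 of 12 genes lower against N-mDCs, and 6 lower and 1 higher (Itgam) against T-mDCs. Its median log2 difference was -1.56 against N-mDCs, beside -1.50 for the cDC1 identity genes, and in T-mDCs against N-mDCs it was -0.65, beside 1.11. No test of the difference between the lists was made. The maturation list, which includes Ccr7, Cd83 and Fscn1, gave 7 of 8 genes lower in T-DCs in both comparisons.

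None of the 10 macrophage genes was called in any comparison (limma), and their mean log2(FPKM + 1) was highest of all samples in T-DC sample 1, at 8.36. Erythroid genes were higher in T-DCs for 3 of 10 against N-mDCs and for 10 of 10 against T-mDCs, and their summed level ran from 99.8 to 5365 FPKM over N-mDC samples, from 613 to 58546 over T-DC samples and from 15.4 to 182 over T-mDC samples. None of the 7 neutrophil genes was called, and their mean log2(FPKM + 1) was 0.82 in T-DC sample 1 and 8.34 and 6.90 in T-DC samples 2 and 3. Against N-mDCs and T-mDCs respectively, T-DCs were lower for 3 and 0 of 8 plasmacytoid DC genes, 4 and 2 of 5 tested B cell genes, 1 and 1 of 8 T cell genes, and 5 and 1 of 5 NK cell genes, and higher for none of them. The part of these cells in the levels of the cDC1 identity genes was not tested beyond the alternatives given above.

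**Figure D4:**
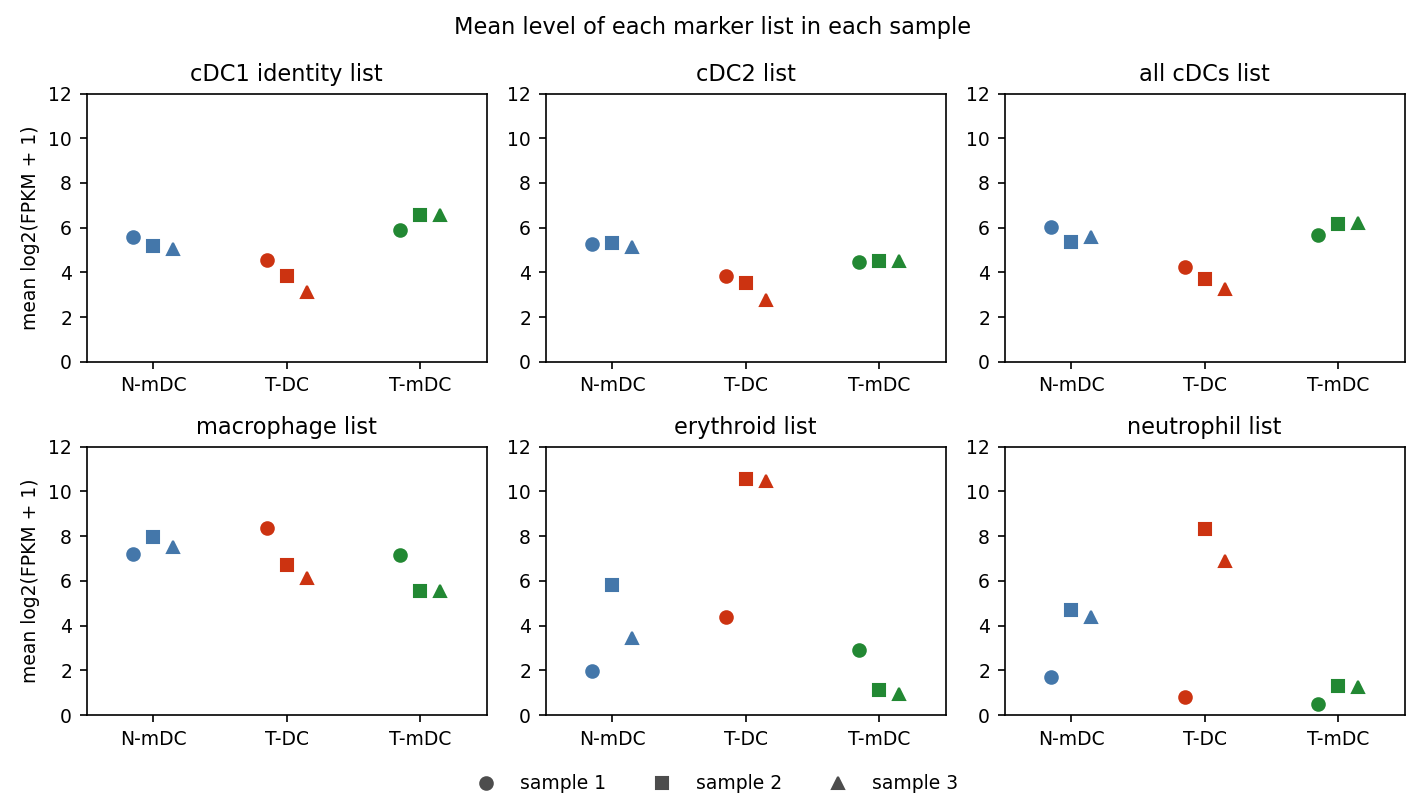
Mean log2(FPKM + 1) of 6 marker lists (vertical axis) for N-mDCs, T-DCs and, last, T-mDCs, with a circle, square and triangle for samples 1, 2 and 3. The cDC1 identity, cDC2 and all cDCs lists are lowest in the 3 T-DC samples, whereas the erythroid and neutrophil lists are high in T-DC samples 2 and 3 and lower in T-DC sample 1.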

How the data were processed

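RNA-seq values of 9 samples in 3 groups were used as deposited. The authors deposited FPKM for each gene, with gene lengths, and the labels name the build mm10; the aligner, counter and annotation are not given in the sources used here. Whole reads per gene were recovered from FPKM and the length of the gene. The reads themselves were not analysed here.

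The scale was log2(FPKM + 1), and 12746 genes that reached an FPKM of 1 in 3 or more samples were tested. A single fit held all groups (limma 3.58.1, R 4.3.3, empirical Bayes with trend), with Benjamini-Hochberg adjustment over these genes and a threshold of 0.05. Adding 1 understates fold changes of low genes. Intervals cover the spread between samples. The procedure was first tested on simulated data with the spread of these samples and 200 changed genes, for T-DCs against N-mDCs. It called 23.8% of the 2-fold changes, 86.2% of the 4-fold changes and 0.051% of unchanged genes. Changes near 2-fold were thus mostly missed. Each gene had the same spread in every simulated group. In the data, the SD of each cDC1 identity gene was a larger share of its mean in T-DCs than in N-mDCs. For Clec9a it was 73.1% against 12.7%. The simulated rates may not hold for spread that differs between groups.

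The members and lists were chosen with earlier results of these data known. Text names every member, its 2 most similar genes by Pearson r, genes of the cDC1 lists, and at most 3 per other list by mean FPKM; Zbtb46 and Itgam were named after their values were seen. Alternatives were a pseudocount of 0.1, no filter, FPKM of at least 5, TPM, quantile and median-of-ratios scaling, only the groups compared, no trend, array weights, voom on whole reads, an erythroid covariate, a replicate block, T-mDC samples 2 and 3 as 1, and leaving out each sample. Rescaling without erythroid genes and leaving out T-DC samples 2 and 3 together were chosen after seeing the data.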

Additional observations from a re-analysis of the deposited data

How the results depend on the processing

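The 8 genes gave 4 calls for T-DCs against N-mDCs, 7 for T-DCs against T-mDCs, and 0 for the 2 mature groups. For T-DCs against N-mDCs the count was 2 with no filter on low values, where 5.16% of all genes in that fit were called. It was 2 with only the groups compared (8.39% of all tested genes) and 0 with the erythroid covariate (3.93%). With array weights it was 8 (7 lower, 1 higher), and it was between 2 and 8 when 1 sample was left out. The main fit called 16.4% of all tested genes in this comparison. For T-DCs against T-mDCs the count was 0 with the erythroid covariate and between 5 and 7 when 1 sample was left out. It was 5 with no filter, with only the groups compared and with T-mDC samples 2 and 3 as 1, and Cadm1 and Ppt1 were lost in each. Those fits called 4.43%, 8.13% and 4.24% of all genes they tested, and the main fit called 14.2%. In T-mDCs against N-mDCs the count was 3 with only the groups compared and 7 with array weights. It was between 0 and 5 when 1 sample was left out, the 5 being without T-DC sample 1. The estimation of array weights stopped before it converged, and those fits called 66.6%, 77.9% and 30.1% of all tested genes. Of 568 values of single genes under alternatives, 492 kept direction and side of the threshold, 48 lost their call, 24 gained one and 4 changed sign. Those 4 were the log2 differences from N-mDCs of Ppt1 (0.071 with the erythroid covariate, 0.080 without T-DC samples 2 and 3) and Snx22 (-0.53 and -0.84). The causes were not tested. TPM moved the median of all genes from 0.07 to -0.225 in T-DCs against T-mDCs. In T-mDCs against N-mDCs, TPM moved it from 0.03 to 0.21 and voom moved it to 0.13. Of the 8 genes, 3, 7 and 0 were called with TPM, beside 11.8%, 13% and 1.33% of all genes tested in those fits. With voom, 4, 7 and 0 were called, beside 15.8%, 15% and 1.36% of all tested genes. The main fit called 16.4%, 14.2% and 2.21%.

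The labels do not say whether samples with the same number were paired. The deviations of same-numbered samples from their group means correlated at -0.475 to 0.269, with 2 of 9 pairs over 0.1. Differently numbered pairs ran from -0.361 to 0.427. Such correlations cannot exclude that same-numbered T-DC and T-mDC samples came from the same mice. With the replicate number as a block, 3, 6 and 0 of the 8 genes were called, beside 10.8%, 9.83% and 0.612% of all tested genes. Xcr1 was lost against N-mDCs (limma adjusted p = 0.0628) and Cadm1 against T-mDCs (adjusted p = 0.0502), and the block changed no other call of the 8. The 8 genes had 69 to 35725 reads per sample, and the fewest were those of Xcr1 in T-DC sample 3, where counting error is largest.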
